A study of Mus musculus with 24 samples.

Results

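Phase II conjugation enzymes attach glutathione, glucuronic acid or sulfate to bilirubin, bile acids, steroids and foreign compounds, and their mRNAs were counted in mouse liver after 20 weeks on a high fat diet, called FFD, or on its control diet. The members are the genes whose symbols begin with Gsta, Gstk, Gstm, Gsto, Gstp, Gstt, Ugt1, Ugt2, Ugt3 or Sult. Of 63 such genes, the 53 that were counted in 12 or more of the 24 libraries were kept, out of 56205 genes in the whole count table and 17913 that passed the same count rule. The 53 comprised 20 glutathione S-transferases (GST), 17 UDP-glucuronosyltransferases (UGT) and 16 sulfotransferases (SULT), and 8 pseudogene symbols were left out. The 10 genes below the count rule were Gstt4, Sult1c1, Sult2a4, Sult2a6, Sult6b1, Sult6b2, Ugt1a2, Ugt1a8, Ugt2a1 and Ugt2a2, none of which had more than 11 counts in any library.

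Whole livers of C57BL/6J mice, with no engineered allele in either group, gave 12 FFD and 12 control libraries of poly(A)-selected RNA. The labels state neither the composition of the diet nor the sex of each mouse, although both sexes were fed each diet. Replicates 1 to 6 of both diets had 2664 to 6285 counts of Xist, the RNA of the inactive X chromosome, and replicates 7 to 12 had 0 to 3. The diets are therefore compared over all libraries and also within the Xist-high and the Xist-low libraries, with 6 libraries per diet in each set. The table held raw gene counts, 14468418 to 22112552 per library, and levels are given as CPM, counts scaled to the size of the library, after TMM scaling, which assumes that most genes do not differ between libraries. The labelled tissue was checked against 8 hepatocyte markers, which summed to between 36300 and 125000 CPM in every library.

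Conjugation follows the oxidation of a compound by cytochrome P450s and makes it water soluble, so that it can leave the hepatocyte in bile or blood. GSTs use glutathione and are induced through NRF2, a transcription factor activated by electrophile stress, and through the receptors AHR, CAR and PXR. UGTs of the Ugt1 locus splice alternative first exons to common last exons, whereas the Ugt2 and Ugt3 genes are separate. SULTs take sulfate from PAPS, and in mouse liver many GST, UGT and SULT genes are known to differ between the sexes.

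The stretches before the starts of 5 genes are shown because these genes carry the main contrasts: Gsta1, Gsta2 and Gstm3 rose on FFD, Gsta3 fell, and Sult3a1 was counted in Xist-high libraries and not in Xist-low ones. Each runs from 200 bases before the RefSeq start to 20 after it on build GRCm38.p6 and lies upstream of the gene's first exon but for those last bases. Gsta1 is at chr9:78230469-78230688, plus strand. Gsta2 is at chr9:78347126-78347345, minus strand. Gstm3 is at chr3:107969155-107969374, minus strand. Gsta3 is at chr1:21240385-21240604, plus strand. Sult3a1 is at chr10:33857522-33857741, plus strand. Capitals mark every match on either strand to the antioxidant response element TGACNNNGC (ARE), the core of the AHR-bound element GCGTG (XRE) and the STAT element TTCNNNGAA, where N is any base. Sequences run 5′ to 3′ on the strand of the gene.
Gsta1: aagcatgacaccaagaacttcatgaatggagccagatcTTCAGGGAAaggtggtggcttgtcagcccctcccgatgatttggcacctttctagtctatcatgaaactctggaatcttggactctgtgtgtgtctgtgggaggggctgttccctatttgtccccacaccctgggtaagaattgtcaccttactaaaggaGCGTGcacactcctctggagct
Gsta2: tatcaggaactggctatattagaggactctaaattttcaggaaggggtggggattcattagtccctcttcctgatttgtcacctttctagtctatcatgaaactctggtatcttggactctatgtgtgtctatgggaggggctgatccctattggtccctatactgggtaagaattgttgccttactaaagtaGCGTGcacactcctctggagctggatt
Gstm3: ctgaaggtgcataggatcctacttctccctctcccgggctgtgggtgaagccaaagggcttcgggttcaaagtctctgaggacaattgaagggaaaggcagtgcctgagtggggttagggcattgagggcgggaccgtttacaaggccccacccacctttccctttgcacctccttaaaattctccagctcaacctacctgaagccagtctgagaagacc
Gsta3: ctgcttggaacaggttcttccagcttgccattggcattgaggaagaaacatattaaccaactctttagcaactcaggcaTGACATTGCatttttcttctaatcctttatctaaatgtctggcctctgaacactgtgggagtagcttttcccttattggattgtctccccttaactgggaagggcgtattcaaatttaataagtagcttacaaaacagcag
Sult3a1: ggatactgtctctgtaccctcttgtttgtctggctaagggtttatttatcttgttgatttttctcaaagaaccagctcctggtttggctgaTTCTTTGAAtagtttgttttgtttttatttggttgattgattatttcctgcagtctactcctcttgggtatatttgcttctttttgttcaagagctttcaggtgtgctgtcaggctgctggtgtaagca
Gsta1 and Gsta2 had 78% identical columns over this stretch, with GCGTG at positions -2 and -7 relative to the start, whereas Gsta1 and Gsta3 had 54.9%. Gsta3 had the ARE match, and Gsta1 and Sult3a1 had the STAT match. Gstm3 had no match to the 3 motifs.

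RefSeq promoters from 250 bases before to 50 after the start were available for 45 of the 53 members, as 55 windows. The ARE was present in 3 of the 55 windows, belonging to Gsta3, Gstm5 and Gstm7, against 12.4% of all 32851 promoters. The XRE core was present in 12 windows of 10 genes, or 21.8%, against 32.4% of all promoters. The STAT motif was present in 4 windows, or 7.27%, against 8.3%. Of the 6 members called higher, 4 had the XRE core in the window, against 10 of all 45 members. None of the 6 had the ARE there. Sequence farther from the start was not searched, so an ARE beyond the window would be missed. A match describes letters in the window and no more.

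Over all 24 libraries, 6 members rose on FFD and 8 fell, where a call required an adjusted p no higher than 0.01 together with a log2 fold change beyond 0.5 in either direction. Among all 17913 genes tested, 13.2% were called higher and 4.99% lower. The 5 rising GSTs were Gsta1, Gsta2, Gstm1, Gstm2 and Gstm3, and the rising SULT was Sult2b1. The falling members were Gsta3, Gstm7, Ugt2a3, Ugt2b1, Ugt2b37, Sult1a1, Sult2a8 and Sult3a2. The remaining 39 members did not pass the call. With the Xist set added as a covariate 6 rose and 14 fell.

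By family, 5 of 20 GSTs rose and 2 fell, none of 17 UGTs rose and 3 fell, and 1 of 16 SULTs rose and 3 fell. The log2 fold change was below 0 for 40 of the 53 members and 9456 of the 17913 tested genes, with medians of -0.40 and -0.03. Scaling by library totals in place of TMM moved the median of all genes to 0.26, that of the members to -0.12 and the split of calls to 9 higher and 4 lower. It left 30 members and 4565 of all tested genes below 0. The lower calls of Gsta3, Gstm7, Ugt2b37 and Sult1a1 were lost, with adjusted p-values of 0.0158 to 0.0681. Under that scaling the GST median moved from -0.24 to 0.14, the UGT median from -0.40 to -0.13 and the SULT median from -0.80 to -0.60. All 12 FFD libraries lay above or below all 12 control libraries for none of the members and for 1.89% of all genes.

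**Figure D1:**
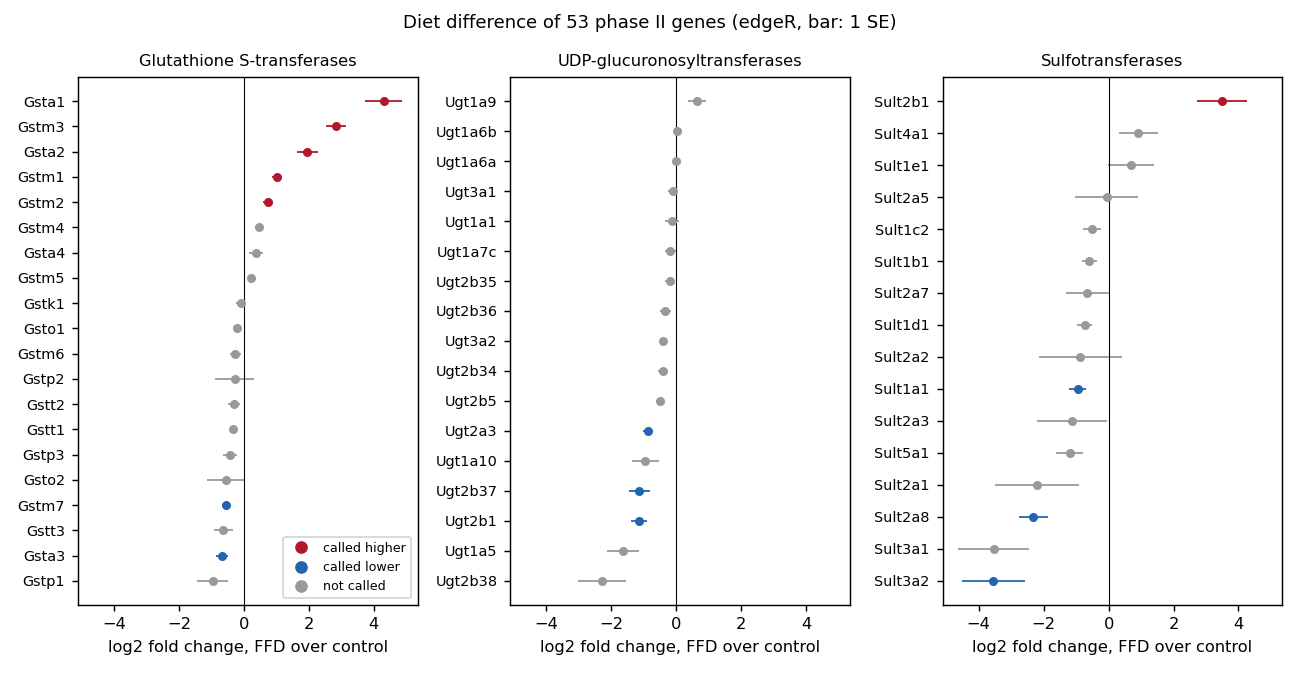
Log2 fold change of FFD over control (x axis, with 1 standard error as the bar) for the 53 members (y axis), by family, from edgeR over 12 libraries per diet. Gsta1 at 4.31 stands farthest to the right and Sult3a2 at -3.55 farthest to the left, and no UGT was called higher.

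Libraries that stood apart touch several of these values. FFD replicate 3 had the lowest level of its diet in 17 of the 53 members and a summed neutrophil marker level of 155 CPM, against at most 3.43 CPM in the other FFD libraries. FFD replicate 9 had the lowest level of its diet in 19 members, and control replicate 10, whose TMM factor was the smallest at 0.679, had the highest of its diet in 19. Leaving out both FFD replicate 3 and control replicate 10 gave 8 members higher and 9 lower, with all 6 higher calls and 5 of the 8 lower calls kept. This exclusion was chosen after seeing the data, and FFD replicate 9, whose TMM factor was the largest at 1.34, was not left out with them.

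The mu class held the GST mRNA with the highest mean level on FFD. Gstm1, a broad detoxifying transferase, had a control median of 1120 CPM (655 to 1410) and an FFD median of 2340 (893 to 2950). Of the 12 FFD libraries, 11 were above every control library, and the one inside the control range was FFD replicate 3. The difference was 2.01-fold (log2 1.01, SE 0.15, adjusted p = 1.82e-05). Per kilobase of exon, Gstm1 stood at 728 CPM in control and 1460 on FFD, the highest mean level of any member on either diet. Without that division the control means of Gsta3 (1230 CPM) and Gstp1 (1100) exceeded that of Gstm1 (1070). In Xist-low controls Gstp1 averaged 1980 CPM against 1010 for Gstm1.

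Gstm3 changed most within the mu class. Its control libraries ranged from 18.8 to 57.5 CPM (median 28.2) and its FFD libraries from 53.6 to 409 (median 267). Again 11 of 12 FFD libraries exceeded all controls, and FFD replicate 3 was the lowest. The mean rose 7.14-fold (log2 2.84, SE 0.31, adjusted p = 4.78e-07). Gstm2 rose 1.67-fold, from a control median of 66.8 CPM (44.1 to 100) to an FFD median of 114 (68.0 to 167; log2 0.74, SE 0.16, adjusted p = 0.000558), and its groups overlapped in 3 FFD libraries.

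Gstm7 went the other way. Its levels were 37.2 to 84.7 CPM in control (median 49.1) and 26.1 to 54.3 on FFD (median 31.1), with 8 of 12 FFD libraries below all controls (log2 -0.55, SE 0.13, adjusted p = 0.00218). Without control replicate 10 its log2 fold change was -0.47, under the fold threshold. Gstm4 had a log2 fold change of 0.47 with an adjusted p of 0.0047 and so missed the threshold on fold alone, and Gstm5 and Gstm6 had 0.23 and -0.27.

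Alpha-class GSTs act on lipid peroxides, steroids and mycotoxin epoxides. Gsta1 was near the floor in control livers, at 0.337 to 10.6 CPM with a median of 1.24, and reached 17.6 to 85.0 CPM in 11 FFD libraries, with a median of 48.0 over all 12. The exception was FFD replicate 3 at 1.65 CPM, inside the control range. The change was 19.8-fold (log2 4.31, SE 0.57, adjusted p = 3.73e-06), the largest of all members. Gsta2 rose 3.90-fold, from 1.53 to 10.2 CPM in control (median 2.68) to 3.78 to 29.8 on FFD (median 15.1; log2 1.96, SE 0.33, adjusted p = 5.07e-05), with 10 FFD libraries above all controls.

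The annotated transcripts of Gsta1 shared 90.5% of their 50-base windows with other genes, chiefly the neighbouring gene model Gm3776 at 75.7%, and those of Gsta2 shared 49.8%, so reads could be divided among them in more than one way. Gm3776, named here for that overlap, had 0 to 20 counts in control libraries and 2 to 255 in FFD libraries (log2 fold change 4.64, SE 0.59, adjusted p = 2.56e-06). The study's methods name the exon quantification pipeline and PISCES for reads aligned to the human genome and do not state how shared reads were assigned in the mouse table, so the values of Gsta1, Gsta2 and Gm3776 are uncertain relative to each other.

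Gsta3, which detoxifies aflatoxin epoxide, was the most abundant alpha-class mRNA and fell. It ranged from 780 to 2780 CPM in control (median 1120) and from 378 to 1140 on FFD (median 787), with 6 FFD libraries below all controls (log2 -0.68, SE 0.19, adjusted p = 0.00662). The call was lost on removal of any one of 10 libraries (FFD replicates 3 and 7 to 12 and control replicates 4, 9 and 10), with adjusted p-values of 0.0104 to 0.0146. Without control replicate 10, the library at 2780 CPM, the estimate was -0.50 (adjusted p = 0.0112). Gsta4, which clears 4-hydroxynonenal, was not called (log2 0.38, adjusted p = 0.148).

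The pi, theta, kappa and omega classes had no call over all libraries. Gstp1, the abundant pi-class enzyme, averaged 1100 ± 1180 CPM in control and 565 ± 271 on FFD (SD, n = 12 each), and this wide control spread followed the Xist sets (log2 -0.96, adjusted p = 0.117). It shared 33.7% of its windows with Gstp2. In the theta class the most abundant member was Gstt1 (log2 -0.33, adjusted p = 0.0233), and Gstt3 had the largest difference (log2 -0.63, adjusted p = 0.079). Gstk1 of mitochondria and peroxisomes had -0.09, and the omega-class genes Gsto1 and Gsto2 had -0.21 and -0.55, the latter at a mean of 1.71 counts per library.

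**Figure D2:**
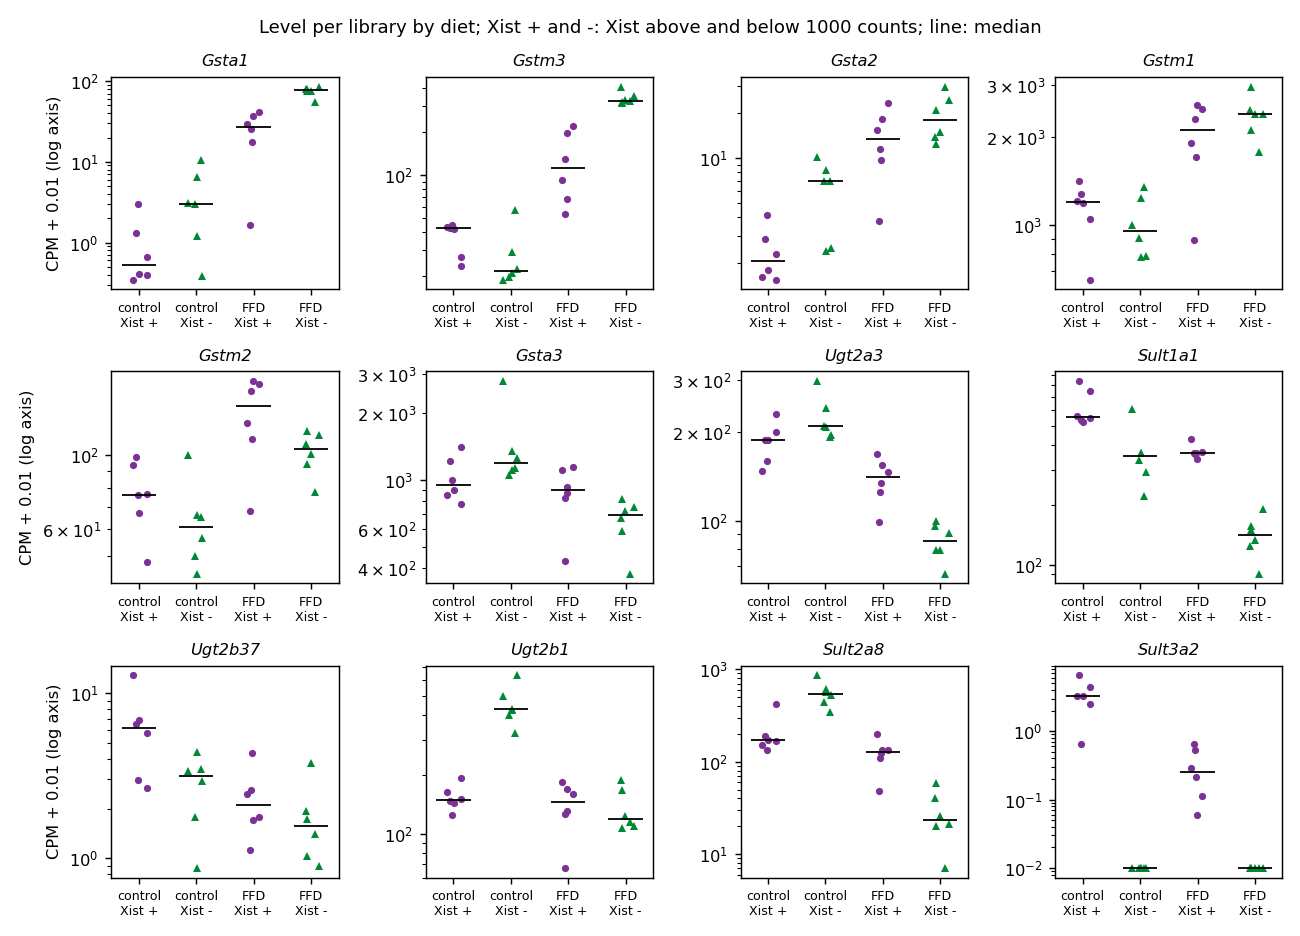
CPM per library plus 0.01 on a log axis for the 12 called members with the largest changes and at least 10 counts on average, by diet and Xist set (6 libraries each, bar at the median). Gsta1, Gstm3 and Gstm1 separate the diets but for FFD replicate 3, the lowest FFD point in each, whereas Ugt2b1 and Sult2a8 separate them only among Xist-low libraries and Sult3a2 is at 0 in all 12 Xist-low libraries.

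Among the UGTs, the 3 that fell were all Ugt2 genes, whose products conjugate steroids, bile acids and phenols. Ugt2a3 ranged from 147 to 297 CPM in control (median 197) and from 66.0 to 168 on FFD (median 99.3). In 10 of 12 FFD libraries it was below every control, and it was 1.83-fold lower (log2 -0.87, SE 0.14, adjusted p = 3.33e-05). Ugt2b1 went from 125 to 638 CPM (median 257) to 67.0 to 188 (median 129; log2 -1.15, SE 0.25, adjusted p = 0.000924), and the lower 6 control libraries lay within the FFD range or just above it.

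Ugt2b37, a low-abundance member, went from 0.863 to 12.8 CPM (median 3.41) to 0.885 to 4.31 (median 1.75; log2 -1.14, SE 0.33, adjusted p = 0.00753). Its call was lost on removal of any one of 13 libraries (FFD replicates 2 to 4, 7 to 10 and 12 and control replicates 1, 3 to 5 and 12), and without control replicate 3 the estimate was -0.88 (adjusted p = 0.0223). All 8 Ugt2 members had a log2 fold change below 0, from -2.28 for Ugt2b38 (adjusted p = 0.0165, or 0.00953 without control replicate 6) to -0.19 for Ugt2b35. The most abundant of them, Ugt2b5, stood at -0.50 (adjusted p = 0.00485) and did not exceed the fold threshold. It did so, with estimates down to -0.54, without any one of 10 libraries (FFD replicates 5 to 8 and control replicates 1 to 3, 5, 6 and 8). It shared 41.7% of its windows with related genes, chiefly Ugt2b38.

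No gene of the Ugt1 locus was called over all libraries. Ugt1a1, the bilirubin transferase and the most abundant of the 7, averaged 607 ± 221 CPM in control and 555 ± 225 on FFD (SD, n = 12 each; log2 -0.13, adjusted p = 0.688). Ugt1a5 had the largest difference of the locus, with 40.4 to 532 CPM in control (median 158) and 5.37 to 157 on FFD (median 40.0; log2 -1.64, SE 0.50, adjusted p = 0.0106), just outside the call. Without any one of FFD replicates 1, 2, 4 and 5 and control replicates 10 and 12 it was within the call, with adjusted p-values of 0.00609 to 0.00903. Ugt1a9 stood at 0.63 (adjusted p = 0.0712). The 7 transcripts shared 52.1% to 79.8% of their windows with one another or with other genes, so reads from the common exons are uncertain between them.

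The Ugt3 genes, which use sugars other than glucuronic acid, had log2 fold changes of -0.09 for Ugt3a1 and -0.40 for Ugt3a2 (adjusted p = 0.00679, under the fold threshold). Ugt3a2 was the more abundant, at 334 ± 35.4 CPM in control and 254 ± 57.6 on FFD (SD, n = 12 each).

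The sulfotransferases had the lowest family median. Sult1a1, the main phenol sulfotransferase and the most abundant SULT per kilobase at 329 CPM in control and 170 on FFD, ranged from 222 to 838 CPM in control (median 530) and from 90.4 to 428 on FFD (median 265). In 6 of 12 FFD libraries it was below all controls (log2 -0.95, SE 0.26, adjusted p = 0.00456). Without control replicate 5 the estimate was -0.86 and the adjusted p just over the limit at 0.01. The other Sult1 genes Sult1b1 (thyroid hormones), Sult1c2, Sult1d1 (catecholamines) and Sult1e1 (estrogens) had values from -0.74 to 0.69, and none passed. Sult1d1 passed without any one of FFD replicates 3 and 5 and control replicates 10 and 11, with adjusted p-values of 0.0068 to 0.00856.

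Sult2a8, a bile acid sulfotransferase, fell most among the SULTs counted in both Xist sets. It ranged from 135 to 860 CPM in control (median 386) and from 7.06 to 197 on FFD (median 53.3). In 10 of 12 FFD libraries it was below every control, and the mean was 4.99-fold lower (log2 -2.32, SE 0.44, adjusted p = 0.000216). The lowest FFD value was that of FFD replicate 9.

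Sult3a2 and Sult3a1, which sulfate amines, had the largest negative estimates. Neither had a count in any Xist-low library, so their medians over all libraries of a diet fall between the sets. Within Xist-high libraries the medians of Sult3a2 were 3.26 CPM in control and 0.24 on FFD. Sult3a2 ranged from 0 to 6.57 CPM in control (median 0.323) and from 0 to 0.640 on FFD (median 0.0249), with 392 counts summed over control libraries and 34 over FFD libraries (log2 -3.55, SE 0.96, adjusted p = 0.0046). Without control replicate 5 the estimate was -3.13 (adjusted p = 0.012). Sult3a1, with 0 to 87.6 CPM in control (median 5.01) and 0 to 9.61 on FFD (median 0.778), stood at -3.54 (adjusted p = 0.0125), and passed without FFD replicate 1 or any one of control replicates 7 to 12 (adjusted p-values of 0.00754 to 0.00948).

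Sult2b1, the cholesterol sulfotransferase, was the single SULT that rose, at very low counts. It had 8 counts summed over the 12 control libraries and 127 over the 12 FFD libraries, with a count in 6 control and 9 FFD libraries (log2 3.48, SE 0.77, adjusted p = 0.000924). FFD replicate 9 was highest at 2.41 CPM, and without it the log2 fold change was 2.83. The brain-type Sult4a1 had a log2 fold change of 0.92 (adjusted p = 0.222), or 0.30 without FFD replicate 9, and Sult5a1 had -1.20 (adjusted p = 0.0224), or -1.49 (adjusted p = 0.00393) without FFD replicate 3.

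Summed over its members, the SULT family ranged from 671 to 2470 CPM in control (median 1230) and from 156 to 1090 on FFD (median 489). Within either Xist set the SULT sums did not overlap between diets, with 1220 to 2470 against 668 to 1090 CPM in Xist-high and 671 to 1680 against 156 to 310 in Xist-low libraries, and the same held with library totals. The UGT sum ranged from 3160 to 4470 CPM in control (median 3370) and from 1720 to 3280 on FFD (median 2660). Under library totals the UGT medians were 3090 and 3010. The GST sum, in which rising Gstm1 and falling Gsta3 were the largest called parts, had medians of 4000 CPM in control and 4900 on FFD with overlapping ranges (2940 to 9090 and 2250 to 5840).

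**Figure D3:**
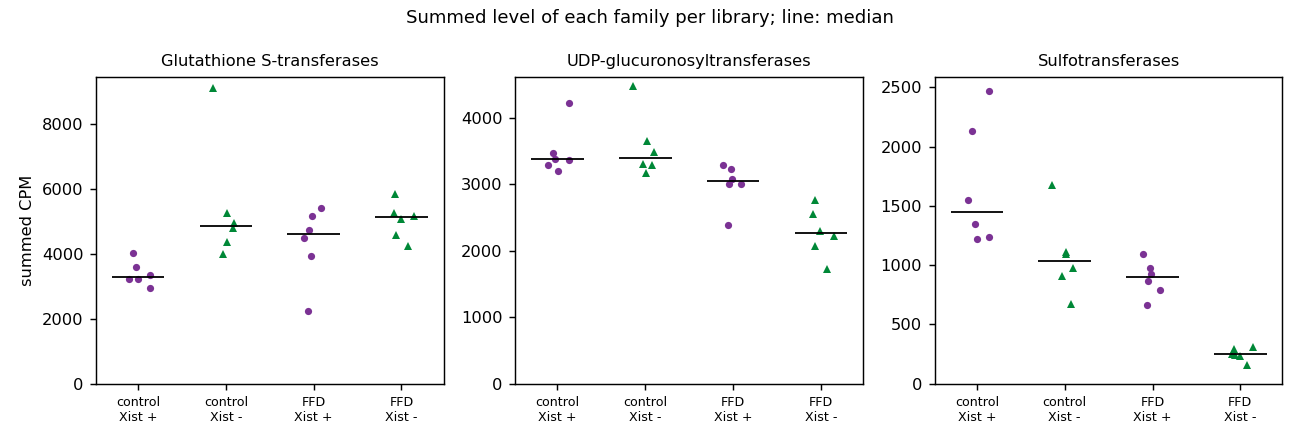
Summed CPM of each family (y axis, from 0) per library, by diet and Xist set, with 6 libraries each and a bar at the median. SULT sums of 156 to 310 CPM in Xist-low FFD libraries lie below all others, and the high GST point at 9090 is control replicate 10.

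The diet comparison within each Xist set asked whether the same genes changed in both. In Xist-high libraries 52 members were tested, and 3 rose (Gsta1, Gsta2 and Gstm3) and 4 fell (Ugt1a5, Sult1a1, Sult3a1 and Sult3a2), where 2.99% of all genes tested were higher and 0.905% lower. In Xist-low libraries 48 were tested, and 6 rose and 18 fell, where 14.6% of all genes were higher and 8.12% lower. Rising in both sets were Gsta1, Gsta2 and Gstm3, and falling in both were Ugt1a5 (log2 -1.49 and -2.24) and Sult1a1 (log2 -0.74 and -1.35). Without FFD replicate 3, 7 members rose and 5 fell among Xist-high libraries, with Gstm1, Gstm2, Gstm4 and Gstp1 added to the rising ones. Without control replicate 10, 8 rose and 16 fell among Xist-low libraries, and with library totals 9 rose and 8 fell there.

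Of the 47 members tested in both sets, 33 had the lower estimate in Xist-low libraries. This was not counted over all genes, so it is not read as a trait of the members. TMM factors were 1.12 to 1.34 on FFD and 0.679 to 0.956 in control among Xist-low libraries. Among Xist-high ones they were 0.994 to 1.06 and 0.892 to 1.01. The difference in diet effect between the sets was itself tested as an interaction, which 6 members passed (adjusted p no higher than 0.01), against 4.06% of all genes. They were Gstm3, Gstp1, Ugt2a3, Ugt2b1, Ugt3a1 and Sult2a8. A call in one set and not in the other is not shown to differ for the members outside these 6.

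Gstp1 ranged from 179 to 295 CPM in Xist-high controls and from 227 to 357 in Xist-high FFD livers (medians 196 and 325). In Xist-low libraries it ranged from 823 to 3780 in control (median 1770) and from 733 to 967 on FFD (median 798). The FFD libraries of the low set thus sat at the bottom of or below their controls, and 5 of the 6 in the high set lay above every control, the exception being FFD replicate 3 at 227 CPM. The log2 fold change was 0.56 (SE 0.14, adjusted p = 0.0159) in the high set and -1.27 (SE 0.30, adjusted p = 0.00398) in the low set, a difference of -1.84 (SE 0.34, adjusted p = 0.00119). Among Xist-high libraries the rise was called without FFD replicate 3 (0.65, adjusted p = 0.00301) and with library totals (0.67, adjusted p = 0.00818).

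Among the 6 members that passed, Sult2a8 had the largest interaction. Xist-high libraries held 135 to 425 CPM in control (median 171) and 48.0 to 197 on FFD (median 128), which overlapped (log2 -0.72, SE 0.30, adjusted p = 0.121). Xist-low libraries held 347 to 860 CPM in control (median 545) and 7.06 to 58.7 on FFD (median 23.4), with no overlap (log2 -4.26, SE 0.42, adjusted p = 5.02e-06). The difference of the effects was -3.54 (SE 0.53, adjusted p = 0.000167).

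Ugt2b1 and Ugt2a3 followed the same order. Ugt2b1 was at 125 to 191 CPM in Xist-high controls (median 149) and 67.0 to 184 in Xist-high FFD livers (median 146), but at 323 to 638 (median 428) and 107 to 188 (median 119) in Xist-low ones. Its log2 fold changes were -0.13 (adjusted p = 0.698) and -1.73 (adjusted p = 1.02e-05), a difference of -1.61 (SE 0.28, adjusted p = 0.000613). On FFD the 2 sets overlapped for Ugt2b1, whereas in control they did not. Ugt2a3 had log2 fold changes of -0.42 (adjusted p = 0.0462) and -1.38 (adjusted p = 4.78e-06), a difference of -0.97 (SE 0.19, adjusted p = 0.00212).

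Ugt3a1 had estimates of opposite sign, 0.41 (SE 0.12, adjusted p = 0.0364) in Xist-high and -0.64 (SE 0.17, adjusted p = 0.00776) in Xist-low libraries, of which the second passed the call. The difference was -1.06 (SE 0.22, adjusted p = 0.00271). Gstm3 rose in both sets and more in the low one, by 1.77 (SE 0.31, adjusted p = 0.00205) and 3.62 (SE 0.26, adjusted p = 7.94e-07) on the log2 scale. Its Xist-low FFD libraries lay at 314 to 409 CPM, above the 53.6 to 219 of the Xist-high ones. The interaction of 1.84 (SE 0.42, adjusted p = 0.00581) missed the limit, with an adjusted p up to 0.013, on removal of any one of 8 libraries (FFD replicates 5 and 7 and control replicates 3, 5 to 8 and 12), whereas the other 5 interactions passed in all 24 such fits.

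**Figure D4:**
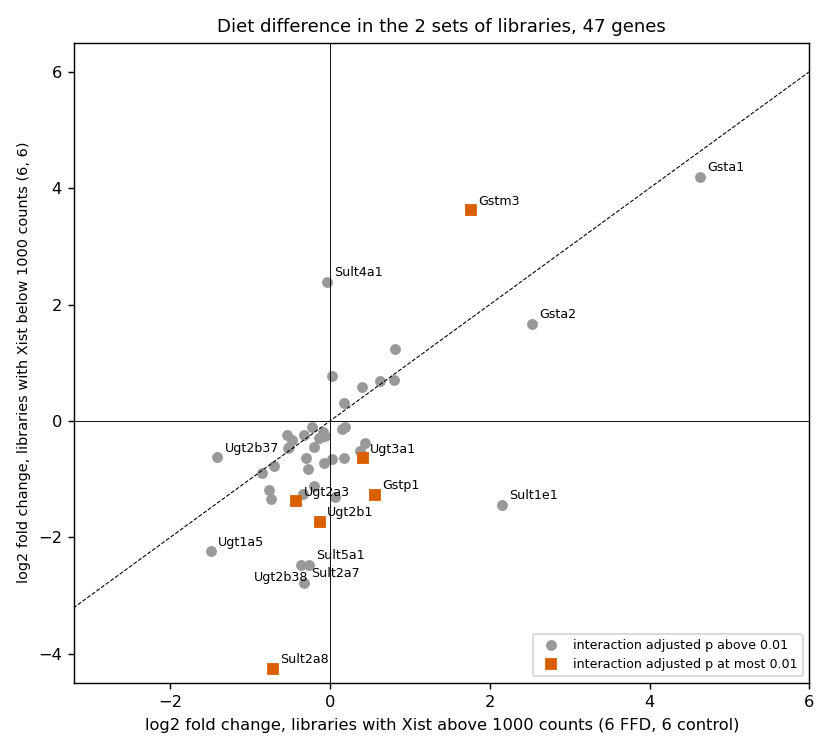
Log2 fold change of FFD over control in the 12 Xist-high libraries (x axis) and in the 12 Xist-low libraries (y axis) for the 47 members tested in both, with equal values on the dashed line. Gstm3 at 3.62 in the low set lies above the line, and Gstp1, Ugt2a3, Ugt2b1, Ugt3a1 and Sult2a8 lie below it.

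Several SULTs were counted almost only in one set. Sult3a1, Sult3a2, Sult2a3 and Sult2a5 had no count in any of the 12 Xist-low libraries, and Sult2a1 and Sult2a2 were at most 0.127 and 0.340 CPM there. In Xist-high libraries Sult3a1 had a median of 65.5 CPM in control, reaching 87.6, and of 4.18 on FFD (1.56 to 9.61), with every FFD library below every control (log2 -3.50, SE 0.48, adjusted p = 0.000416). Sult3a2 fell alongside it (log2 -3.49, SE 0.53, adjusted p = 0.000842). Sult2a1, the hydroxysteroid sulfotransferase for DHEA and bile acids, went from 101 to 414 CPM (median 244) to 7.30 to 106 (median 56.0), which left it outside the call (log2 -2.19, adjusted p = 0.0123). Sult2a2 had -0.85, Sult2a3 -1.10 and Sult2a5 -0.03. Sult2a1 and Sult2a2 shared 33.2% and 62.1% of their windows with related genes, so their split is uncertain.

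Of the 18 members that fell in Xist-low libraries, 11 others were called in that set alone and did not pass the interaction. They were Gsta3 (log2 -1.12), Gstm7 (-0.83), Gstm6 (-0.63), Gstt3 (-1.26), Ugt2b38 (-2.47), Ugt2b5 (-0.63), Ugt3a2 (-0.73), Sult1b1 (-1.31), Sult1d1 (-0.77), Sult2a7 (-2.78) and Sult5a1 (-2.47). Gstt3, for example, was at 49.7 to 72.8 CPM in Xist-low controls (median 55.5) and 17.3 to 37.1 on FFD (median 22.8), which did not overlap. The rising calls of that set alone were Gstm1 (1.23), Gstm2 (0.70) and Sult2b1 (4.03), and Sult2b1 was not tested in the high set.

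Genes that supply, control or follow conjugation were described from 8 lists with 68 tested genes, of which 15 rose and none fell under the same call. That call gave 13.2% of all genes higher and 4.99% lower. In cosubstrate supply, Gss of glutathione synthesis (0.62), Ugdh, which makes UDP-glucuronic acid (0.73), and Papss1, which makes PAPS (0.56), were the called genes among 6, 3 and 5. Papss2, of the same PAPS list, had a control mean of 244 CPM against 11.7 for Papss1. It fell in Xist-low libraries alone (-0.87, adjusted p = 0.00208), where of the 3 rising genes only Gss passed. None of 16 regulators passed over all libraries, and Nfe2l2, encoding NRF2, had a log2 fold change of 0.40 (adjusted p = 3.13e-05) that was under the fold threshold. In Xist-low libraries alone the regulators Nr1i3, encoding CAR (-0.99, adjusted p = 0.000887), and Esr1 (-1.47, adjusted p = 0.0031) fell. Of 10 NRF2 target genes outside the families 6 rose, namely Nqo1 (0.76), Srxn1 (0.81), Hmox1 (1.28), Slc7a11 (2.19), Cbr3 (2.33) and Gpx2 (2.81), with a list median of 0.79 against -0.03 over all genes. Slc7a11 and Gpx2 were low, with at most 12 and 73 counts in any library. All 6 passed in Xist-low libraries, whereas Hmox1 alone of them passed in Xist-high ones. The others had adjusted p-values of 0.0142 (Srxn1) to 0.402 (Gpx2) there, and Cbr3 passed the interaction (adjusted p = 0.00406).

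Of 6 AHR, CAR and PXR target genes, which were P450s and the AHR target Tiparp, 2 rose, Cyp2c55 (1.48) and Cyp3a11, a PXR target (1.76, from a mean of 560 to 1900 CPM). In Xist-low libraries alone these 2 and Cyp2b10 (2.69, adjusted p = 0.00403) rose, and Cyp1a2 fell (-1.29, adjusted p = 5.23e-05). Cyp1a2 stood at 0.21 in Xist-high libraries and passed the interaction (adjusted p = 0.00018). Among 16 other phase II enzymes the epoxide hydrolase Ephx1 (1.14) and the prostaglandin D synthase Hpgds (1.71) rose, a share near the 13.2% of all genes called higher. Hpgds was called in Xist-low libraries (2.87) and not in Xist-high ones (0.72, adjusted p = 0.179), and it passed the interaction (adjusted p = 0.00622). Of 6 tested export and deconjugation genes the conjugate exporter Abcc3 (0.83) and the glucuronidase Gusb (0.66) rose. In Xist-low libraries 14 list genes rose and 9 fell, where 14.6% of all genes were higher and 8.12% lower. The 9 were Papss2, Nr1i3, Esr1, Cyp1a2, Gstz1, Nat1, Nnmt, Glyat and Abcc6. In Xist-high libraries 5 rose and none fell, where 2.99% of all genes were higher and 0.905% lower.

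Cell type markers moved together with the diet, and in whole liver fewer cells of a type and less RNA per cell cannot be told apart. Of 8 hepatocyte markers 6 fell, among them Alb (-0.72) and Tat (-1.33), with a list median of -0.71, and their sum ranged from 79000 to 125000 CPM in control and from 36300 to 88500 on FFD. Of 7 periportal markers 5 fell (median -0.90), and none of 8 pericentral markers passed over all libraries (median -0.48). Of 10 macrophage markers 8 rose (median 1.58, sums of 159 to 659 and 657 to 1310 CPM), as did 6 of 8 stellate or fibroblast markers (median 1.04, sums of 129 to 384 and 334 to 834 CPM) and 6 of 7 cholangiocyte markers (median 2.62, sums of 27.4 to 133 and 32.3 to 903 CPM). All 3 neutrophil markers tested rose (median 3.79, sums of 0.288 to 1.94 and 1.19 to 155 CPM). Without FFD replicate 3, the library at 155 CPM, S100a8 went from 4.28 to 1.55 and Retnlg did not pass (log2 0.76, adjusted p = 0.155). In addition, 1 of 6 sinusoidal endothelial markers rose, and none of the 6 T cell or 4 B cell markers passed over all libraries. Among Xist-high libraries alone, Alb was the only hepatocyte and Hal the only periportal marker called. No cholangiocyte marker passed there (adjusted p from 0.0225 to 0.658), whereas Cd68, Trem2, Gpnmb, Itgax, Pdgfrb, Col1a1, Col3a1 and Lum did. In Xist-low libraries alone the pericentral markers Cyp2e1 (-0.83), Cyp1a2 (-1.29), Oat (-1.76) and Slc1a2 (-1.59) fell. Glul, Axin2, Lgr5 and Rhbg did not pass there. The T cell markers Cd8a (3.03), Cd3d and Cd3g and the B cell marker Cd79a rose in that set, at no more than 85 counts in any library. The other T and B cell markers did not pass. Markers that passed the interaction with higher estimates in Xist-low libraries were Adgre1, Cd68, Csf1r, Cd8a, Lum and Epcam. Those with lower estimates there were Cyp1a2, Oat, Slc1a2 and Cyp2f2. The part of these shifts in the falls of UGT and SULT members or in the rises of GST members was not tested.

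**Figure D5:**
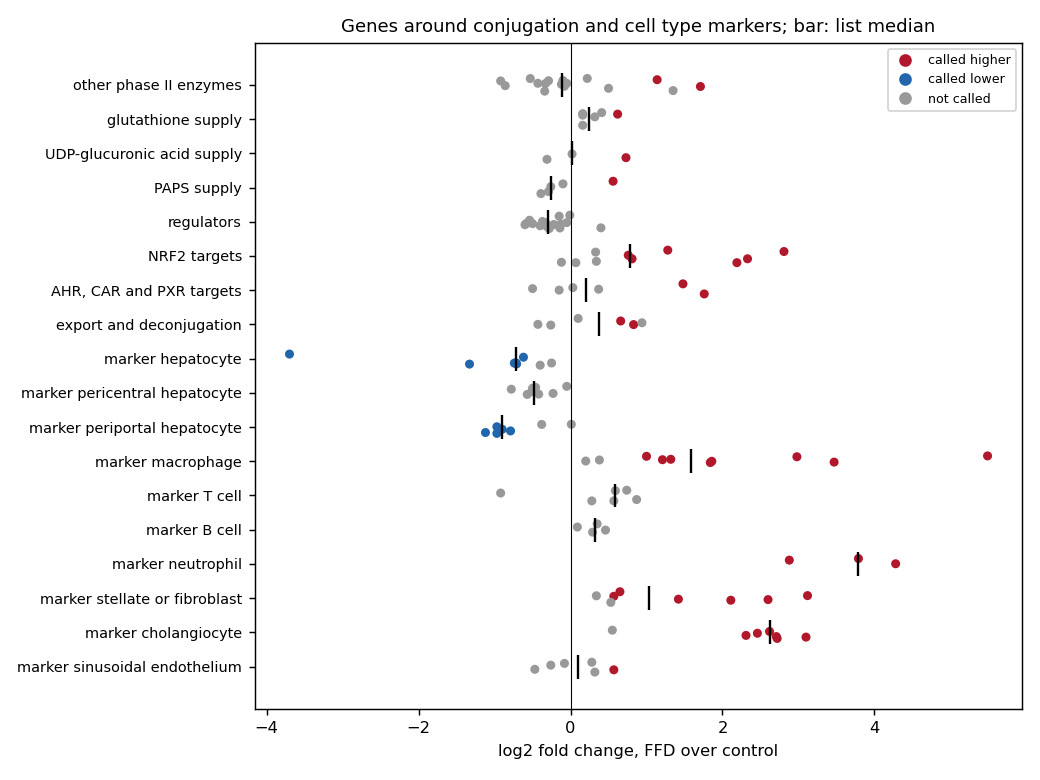
Log2 fold change of FFD over control (x axis) of each tested gene of the 8 lists around conjugation and the 10 marker lists (y axis), with the list median as a bar. NRF2 targets lie mostly above 0 with a median of 0.79, hepatocyte and periportal markers below 0, and macrophage and cholangiocyte markers above 0.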

How the data were processed

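Liver poly(A) RNA of 12 FFD and 12 control mice was measured. The deposited table held raw gene counts, which the authors made with STAR 2.7.3a on mm10 per the labels. The study's methods name the exon quantification pipeline and PISCES for human reads, and the counter and annotation of the mouse table are not stated there. Symbols were matched for 51745 of 56205 identifiers, and the 4460 others held 0.0723% of counts. The members and lists were chosen with earlier results of these data known. Genes counted (1 or more) in 12 or more libraries were fitted with edgeR 4.0.16 (R 4.3.3, TMM, quasi-likelihood test, diet as the only term, Benjamini-Hochberg over 17913 genes). Named were the called members, the most abundant and most changed of each class, and those whose effect or call differed between sets. Within-set fits required 6 libraries, and the interaction used all 24. DESeq2 1.42.0, limma 3.58.1 and other settings were alternatives. Shared windows and exon lengths came from GENCODE M21 transcripts, and promoters from RefSeq. Tests were checked on simulated counts. Replicate numbers shared between diets were not taken as pairs, since the correlation was not over 0.1 in every pair (-0.0935 to 0.541, or -0.257 to 0.276 about the means of each Xist set). P-values test a diet difference against the spread between these libraries, which in the main fit includes the difference between the Xist sets. Proteins were not compared here.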

Additional observations from a re-analysis of the deposited data

Results flagged for a closer look

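The diet effect differed between Xist-low and Xist-high libraries, by the interaction test over all genes, for 6 members. As the log2 fold change in the low set minus that in the high set, the values were 1.84 for Gstm3, -1.84 for Gstp1, -0.97 for Ugt2a3, -1.61 for Ugt2b1, -1.06 for Ugt3a1 and -3.54 for Sult2a8. With FFD replicate 3 and control replicate 10 both left out they were 1.59, -1.63, -0.95, -1.72, -1.16 and -3.55, with adjusted p-values from 5.13e-05 to 0.0077. Groups of 12 libraries are too large for the single-sample outlier check, which was not run.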

How the results depend on the processing

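The 6 members called higher ranged from 6 to 8 and the 8 called lower from 6 to 11 over the 24 fits without 1 library each, the interaction count from 5 to 8, and the 15 list genes called higher stayed at 15. With the replicate number as a block, although the numbers were not taken as pairs, 7 members were higher and 11 lower. The lower count was 18 at an adjusted p of 0.05 with no fold threshold, 4 at a log2 fold change over 1, 4 with library totals and 14 with the Xist set as a covariate. In Xist-high libraries alone 3 were higher and 4 lower, and in Xist-low ones 18 were lower. Settings chosen after seeing the data gave 5 lower (Xist-high without FFD replicate 3), 16 (Xist-low without control replicate 10) and 4 (Xist-high, library totals). The interaction count was 11 at an adjusted p of 0.05 and 11 without both libraries that stood apart, a setting also chosen after seeing the data. List genes called higher were 8 at a log2 fold change over 1, 5 in Xist-high libraries, 9 there without FFD replicate 3 and 8 there with library totals. Gstp1 changed sign and was called in Xist-high libraries without FFD replicate 3 (0.65) and with library totals (0.67), and Ugt2b1 was at 0.02 in the former. The subsets hold fewer libraries, and for the other changes the cause was not tested. DESeq2, limma-voom and both filters kept the counts of higher and lower members within 1.5 times. Depth limits Gsto2, Sult2b1, Sult4a1 and Sult3a2, which averaged under 20 counts per library.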
